A study of Mus musculus with 3 samples.

Results

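The cells that the sample titles call NKB cells (natural killer B cells, by the cell type label) were set against natural killer (NK) cells, gene by gene, on 1 expression array per population. Members were all genes with a gene name in the array annotation, with the transcripts of one name averaged on the log2 scale. This gave 24203 genes from 41886 of the 44170 transcripts on each array. Both populations came by cell sorting from spleens of wild-type (WT) C57/BL6 mice, kept specific-pathogen-free and used at 8 weeks, and the labels name no agent for either. The third array of the series, from spleen B cells of the same strain, genotype and age, is quoted only as a level beside the other 2. Total RNA was copied from oligo dT primers, labelled with Cy3 and hybridised to single-colour NimbleGen arrays. Neither the sort gate nor the number of mice behind an array was available for use here. The treatment text of all the samples speaks of sorting long-term hematopoietic stem cells.

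NK cells kill infected or transformed cells with perforin and granzymes, and read MHC class I through the lectin-like receptors of the Ly49 and NKG2 families. B cells carry an antigen receptor built from immunoglobulin and the chains CD79A and CD79B, depend on the factor Pax5, and present antigen on MHC class II. The name NKB has been used for spleen cells that bear surface antigens of both lineages, so the comparison with NK cells asks which genes separate the NKB sample from the lineage that shares its NK antigens.

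Intensities were RMA values on a linear scale. The detection level of an array was the 95th percentile of its 924 olfactory and vomeronasal receptor genes, and was 135 on the NKB array and 137 on the NK array. Values under the level were set to it before a difference was taken, so a fold against such a value is written as "at least". A gene is called higher or lower where its intensities differed at least 2-fold. With 1 array per population there is no spread between replicates, so differences were not tested and carry no p-values. The median transcript read 65.1 in NKB, 64.8 in NK and 64.3 in B. When the level was left off, 21.0% of these receptor genes were 2-fold or more apart between NKB and NK, with an SD of 0.89 on the log2 scale. With it, 4 of the 924 were called higher and 17 lower. The level was set on these same genes, so only 47 of them were above it on each array. Only the 80 above it on at least 1 of the 2 arrays could be called, so the low counts do not measure how well the level works.

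The label was first checked against markers of both lineages, and the NKB array carried both sets. Of 24 B cell identity genes, 22 were above the level in NKB, 4 in NK and 24 in B, and their summed intensity was 43771, 3263 and 46977. Of 23 NK cell identity genes, 16 were above it in NKB, 23 in NK and 1 in B, with sums of 18631, 72871 and 1465. Genes of another organ were also present: of 29 genes of kidney tubule cells, a list drawn up after the leading genes had been seen, 21 were above the level in NKB, 2 in NK and 3 in B. Their summed intensity was 17814 in NKB, 1993 in NK and 2033 in B. Monocyte and macrophage genes summed to 15506 in NKB, 11860 in NK and 2585 in B, and erythroid genes to 15456, 11442 and 2424 in the same order. The part of these cells in any difference below was not tested. In RNA from a sorted bulk sample, fewer cells of a type and less RNA per cell cannot be told apart, nor can a mix of cell types and cells that carry both sets of genes.

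Of the 24203 genes, 6035 were above the level on the NKB array and 6080 on the NK array. Both sets shared 3868 genes, 2167 were above it on the NKB array alone and 2212 on the NK array alone. At 2-fold, 1442 genes were higher in NKB, which is 5.96% of all genes, and 1235 were lower, which is 5.1%. Among the 8247 genes above the level on at least 1 of the 2 arrays, these shares were 17.5% and 15.0%. Large differences leaned to the higher side, with 446 higher and 285 lower genes at 4-fold, 121 and 52 at 8-fold and 23 and 9 at 16-fold. In 614 of the higher genes the NK value was under the level, and in 598 of the lower genes the NKB value was. The median log2 difference was 0.08 over genes above the level on both arrays, with quartiles of -0.63 and 0.87, and 0.02 over all genes without the level.

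**Figure D1:**
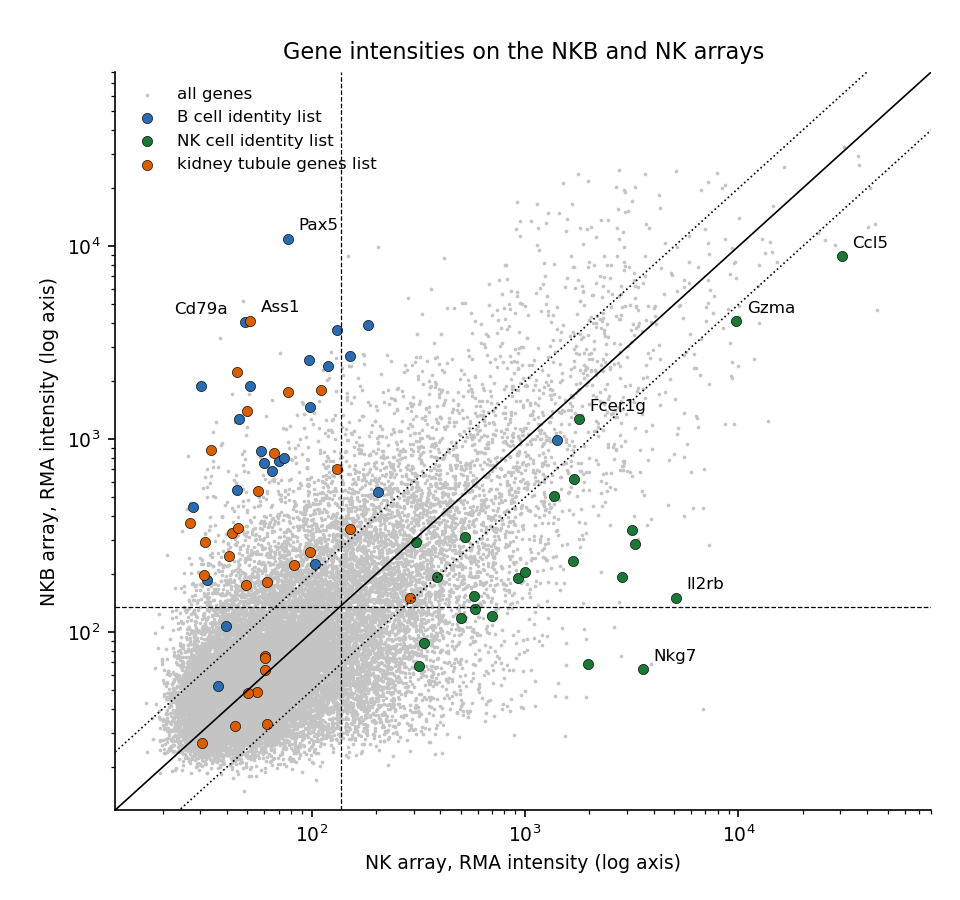
Intensity of each gene on the NKB array (vertical, log axis) against the NK array (horizontal, log axis); dashed lines are the detection levels, the solid line equality and the dotted lines 2-fold. The B cell identity genes, such as Pax5 at 10954 in NKB and 77.4 in NK, lie above the diagonal except Cd37 (996 against 1412), together with kidney tubule genes such as Ass1, and the NK cell identity genes lie below or near it.

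Many genes were measured by several transcripts, which gives a check within the arrays. Of 10194 genes with 2 or more transcripts, 580 were called higher and 387 lower on their averages. Most of these calls did not hold on every transcript. At least 2-fold higher on every transcript were 171 genes (1.68% of the 10194), and at least 2-fold lower on every one were 109 (1.07%). With values under the level set to it, the largest difference of the first kind was that of H2-DMb1, a chain of the molecule that loads peptides onto MHC class II, at chr17:34282360-34297174 on build MM9. Its 3 transcripts read 10474, 9566 and 9845 in NKB and 273, 162 and 195 in NK, so the averages of 9954 and 205 differed 48.5-fold. The folds of several genes below are lower bounds, so the order among them is that of the bounds. Its neighbour H2-DMb2, a close paralog annotated to the same interval of the array's build, read 2812 in NKB and 71.3 in NK, and shared hybridisation between the 2 genes was not tested.

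Behind it came genes of several kinds. Rnase6, which encodes a secreted ribonuclease, read 2211, 2874 and 3517 in NKB against 138, 84.6 and 162 in NK on its transcripts, and 1318 on average in B. Scd1, the desaturase that makes monounsaturated fatty acids, read 2641 in NKB and 129 in NK, at least 19.3-fold higher. Ms4a1, which encodes the B cell surface protein CD20, was at least 18.7-fold higher, and Tnfrsf13c, the receptor for the B cell survival factor BAFF, was 18.0-fold higher. All 4 of these genes were above the level in B.

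The B readings of the other leading higher genes were closer to NK than to NKB. Ass1, a urea cycle enzyme gene that kidney tubules use to make arginine, read 3803 and 4458 in NKB against 54.5 and 48.9 in NK on its 2 transcripts, and 177 on average in B. Slc27a2, a fatty acid transporter and acyl-CoA synthetase of kidney and liver, read 2240 in NKB, 44.7 in NK and 75.2 in B. Taf15, an RNA-binding protein of the transcription machinery, read 2762, 175 and 231 on the NKB, NK and B arrays. Luc7l3, a splicing factor, read 2029 in NKB, 119 in NK and 214 in B, and the ribosomal protein gene Rpl36a read 13454, 943 and 1617. Fam3c, which encodes a secreted cytokine-like protein, read 2155 in NKB, 140.5 in NK and 497 in B.

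With the level applied, Il2rb led the genes that were lower on every transcript, though the fold of Nkg7 is only a lower bound. Il2rb encodes the shared beta chain of the receptors for interleukin 2 and interleukin 15, on which NK cells depend, and lies at chr15:78310978-78325469 on MM9. Its 2 transcripts read 305 and 74.6 in NKB, against 10280 and 2549 in NK, a 33.9-fold difference of the averages, and 46.0 on average in B. Nkg7, a membrane protein of cytotoxic granules, read 129 and 32.2 in NKB against 6187 and 2076 in NK, and both NKB values were under the level. Selplg, the ligand for P-selectin that lets leukocytes roll on vessel walls, read 443 in NKB and 6132 in NK. Fxyd5, a membrane regulator of adhesion, was 11.1-fold lower at 292 against 3240.

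Several genes of this group were also above the level in B. Laptm5, a lysosomal membrane protein of leukocytes, read 455 in NKB, 4697 in NK and 2150 in B. Tle3, a corepressor of transcription, read 205 in NKB, 2261 in NK and 1114 in B. Atp2a3, the calcium pump of the endoplasmic reticulum in blood cells, read 514, 3592 and 2464 on the NKB, NK and B arrays, and Sh2d3c, a signalling adaptor of lymphocyte migration, read 62.7, 981 and 419. On each of these 4 genes the NKB array was below both other arrays. Dusp5, a nuclear phosphatase of the MAP kinase ERK, was 8.25-fold lower at 139 against 1149.

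**Figure D2:**
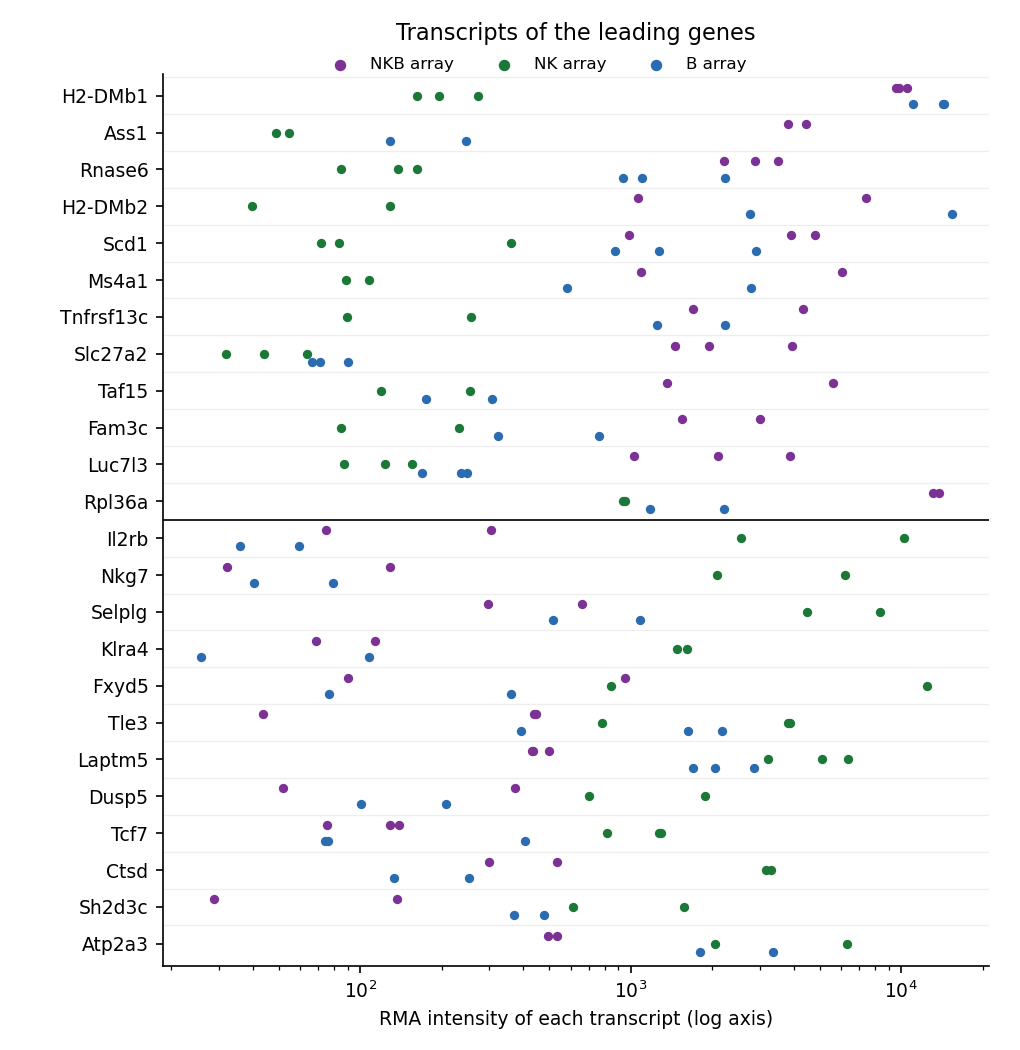
Intensity of every transcript (horizontal, log axis) of the 12 most higher and the 12 most lower genes among those whose transcripts all passed 2-fold in one direction; points are single transcripts on the NKB, NK and B arrays. In the upper block the NKB points lie to the right of the NK points for each gene, as for Ass1 at 4117 against 51.6 on average, and in the lower block to the left.

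B lineage transcription factors were higher for 10 of 19 on the array and lower for 2, with a median log2 difference of 1.09 without the level, beside 0.02 over all genes. Pax5, which holds B cells to their lineage, read 10954 in NKB and 77.4 in NK on its single transcript, at least 79.9-fold higher, and 1310 in B. Ebf1, which acts with it, was at least 3.97-fold higher at 545 against 44.7. Its 4 transcripts read 1189, 923, 444 and 181 in NKB and were all under the level in NK. Pou2af1, a coactivator of the octamer-binding factors, was at least 13.8-fold higher, Irf4, a factor of activated B cells, 11.8-fold higher and Mef2c, which B cells need for receptor-driven growth, at least 6.62-fold higher. The lower factors were Foxo1, which drives recombination and homing genes, at 430 against 1035, and Id3, an inhibitor of E proteins, at 138 against 434. The E protein gene Tcf3 read 422 in NKB and 413 in NK, and Ikaros (Ikzf1) 974 and 802.

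The B cell receptor complex and its coreceptors had 12 of 18 higher and 0 lower, with a median of 3.06. The signalling chain Cd79a read 4056 in NKB and 48.5 in NK, and Cd79b 3893 and 184. Cr2, the complement receptor that lowers the threshold of the B cell receptor, read 1894 and 30.3. The inhibitory receptor Cd22 was at least 6.34-fold higher at 869 against 58.2. Fcgr2b, the inhibitory Fc receptor, read 366 in NKB, 79.1 in NK and 96.5 in B. Cd37, a leukocyte tetraspanin, read 996 in NKB and 1412 in NK.

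Downstream of the receptor, 11 of 24 signalling genes were higher and 2 lower, with a median of 1.09. The kinase gene Btk was at least 17.6-fold higher at 2409 against 120, the scaffold Bank1 at least 10.7-fold higher and the adaptor Blnk at least 9.31-fold higher at 1276 against 45.4. Rasgrp3, which switches on Ras, read 715 in NKB, 36.4 in NK and 203 in B. Genes that both lineages use differed less: Plcg2, the phospholipase, read 493 and 443, Prkcd 520 and 421, and the kinase gene Syk 357 and 450 in NKB and NK. The lower members were Pik3cd, the leukocyte PI3 kinase subunit, at 222 against 601, and Bcl10, which links receptors to NF-kappaB, at 127 against 344.

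Promoter windows are printed for the adaptor gene Blnk and the receptor gene Cd22 because they hold binding letters of B cell factors. The windows are the 250 bases before the gene start in RefSeq, build GRCm38.p6, given 5′ to 3′ on the gene's strand. Capitals in Blnk mark ATTTGCAT, the octamer of POU factors (ATGCAAAT, searched on both strands), which begins 130 bases before the start. Those in Cd22 mark TCCCTGGGGA, a match to the EBF palindrome (TCCC and GGGA with any 2 bases between) 49 bases before the start.
Blnk, chr19:40994222-40994471, minus strand: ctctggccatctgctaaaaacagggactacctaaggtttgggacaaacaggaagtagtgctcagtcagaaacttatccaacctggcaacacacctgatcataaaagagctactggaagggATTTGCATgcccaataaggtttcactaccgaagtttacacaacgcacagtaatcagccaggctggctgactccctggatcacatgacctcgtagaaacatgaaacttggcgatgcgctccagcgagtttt
Cd22, chr7:30879029-30879278, minus strand: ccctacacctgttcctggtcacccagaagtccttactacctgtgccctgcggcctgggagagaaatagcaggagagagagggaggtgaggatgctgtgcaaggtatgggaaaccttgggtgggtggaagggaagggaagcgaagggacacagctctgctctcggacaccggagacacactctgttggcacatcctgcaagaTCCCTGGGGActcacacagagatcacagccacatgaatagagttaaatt
The octamer was in 1.91% of 944 windows of genes higher in NKB, 1.82% of 713 windows of genes lower in NKB and 1.54% of all 16260 windows. The palindrome was in 1.06%, 1.54% and 0.836% of them. A match is a description of letters and not a bound site.

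Genes of antibody and its secretion were higher for 3 of 13 on the array and lower for 0, and 5 were under the level on both arrays. Ighm, the IgM heavy chain, was 8.17-fold higher at 6754 against 827, and each of its 5 transcripts passed 2-fold. Mzb1, a chaperone of IgM assembly, read 870 in NKB, 56.5 in NK and 359 in B, and Jchain, which joins IgM subunits, read 500 in NKB, 56.6 in NK and 65.9 in B. Among members that were not called, the plasma cell regulator Xbp1 read 80.0 in NKB and 189 in NK, Prdm1 75.3 and 244, and the surface gene Sdc1 56.0 and 196. Tnfrsf17, which encodes a plasma cell survival receptor, was under the level on both arrays.

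In the MHC class II list, 8 of 15 genes on the array were higher and 0 lower, with a median of 1.77. Besides H2-DMb1 and H2-DMb2, the lysosomal thiol reductase gene Ifi30 was 19.2-fold higher at 5401 against 281, and the invariant chain Cd74 9.35-fold higher at 6344 against 679. The beta chain H2-Eb1 read 3144 in NKB, 622 in NK and 9416 in B. The alpha chain H2-Aa read 643, 138 and 2139 in the same order. Both chains were thus brighter in NKB than in NK and dimmer than in B. H2-Ab1 fell just short of 2-fold at 1240 against 644, and the class II transactivator Ciita read 205 in NKB and 113 in NK.

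Survival and costimulation genes of B cells had 7 of 15 higher and 0 lower, with a median of 1.45. Cd24a, a surface protein of young B cells, was at least 26.9-fold higher at 3690 against 132, and Icosl, the ligand of the T cell costimulator ICOS, at least 8.71-fold higher. Cd180, a Toll-like surface protein of B cells, read 681 in NKB and 48.4 in NK, and the activation marker Cd83 501 and 59.4. Cd69, which marks recent activation in both lineages, read 558 in NKB, 129 in NK and 117 in B. Cd55, which shields cells from complement, read 553, 47.7 and 268. Among subset genes, Notch2, the receptor that marginal zone B cells need, read 1044 in NKB and 347 in NK, and the tetraspanin Cd9 was 2.49-fold lower at 304 against 758.

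**Figure D3:**
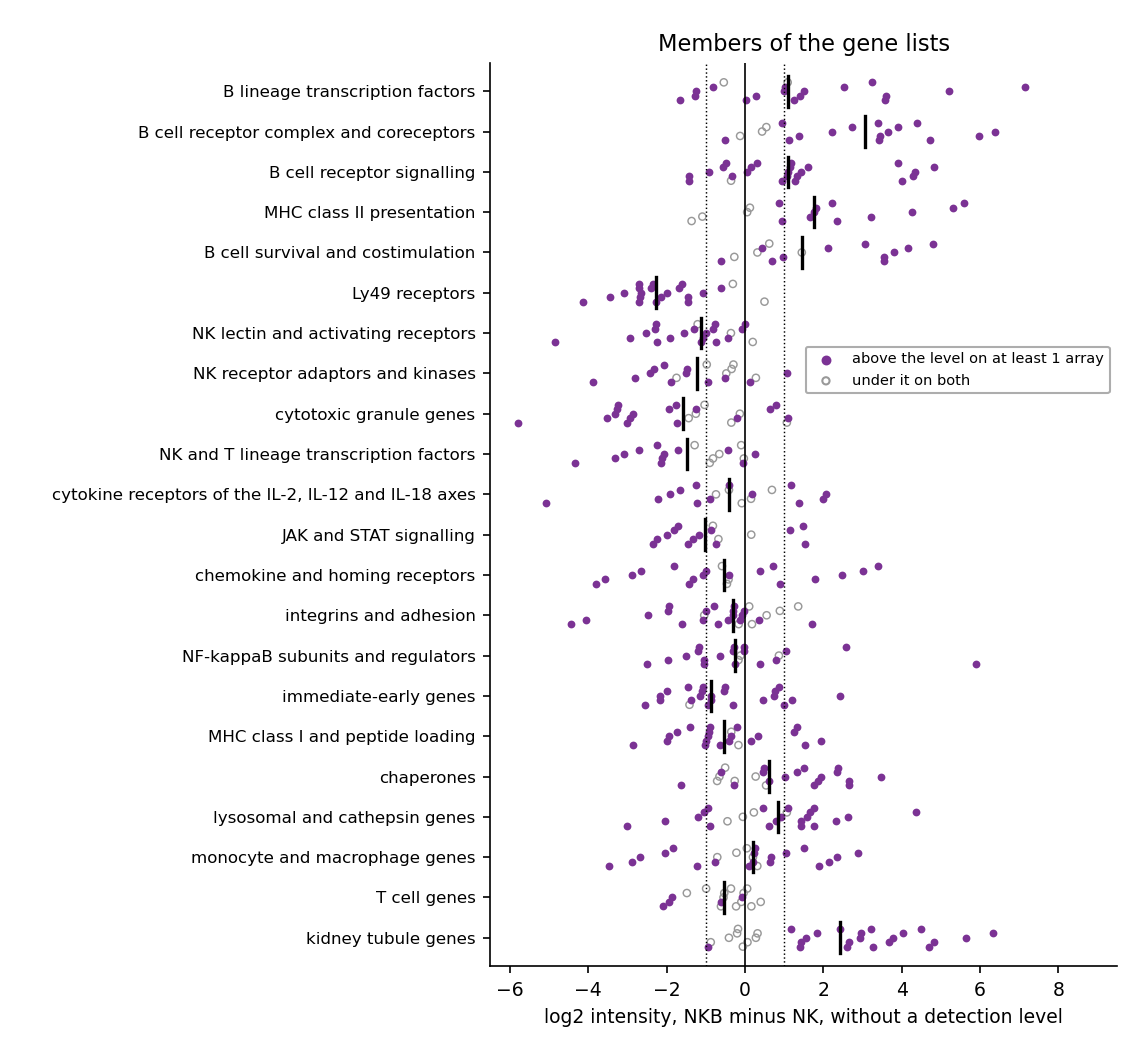
Difference in log2 intensity, NKB minus NK, without a detection level, for each member of 22 gene lists; filled points were above the level on at least 1 array, open points on neither, black bars are list medians and dotted lines 2-fold. The B cell receptor complex has a median of 3.06 and the Ly49 receptors one of -2.28, while the chaperone list lies to the right of 0 at 0.62 and the immediate-early list to the left at -0.87.

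NK cell genes were dimmer in NKB than in NK, but many stayed above their level. Of 21 Ly49 receptors, which bind MHC class I, 16 were lower and 0 higher, with a median log2 difference of -2.28. They were above the level for 13 members in NKB, 19 in NK and 1 in B. Klra4 read 114 and 68.8 in NKB against 1619 and 1488 in NK on its 2 transcripts, at least 11.5-fold lower. Klra13-ps read 1066 in NKB, 5176 in NK and 81.5 in B, and the activating receptor gene Klra8 623, 1693 and 95.4. Klra20 was the member nearest to its NK value among those above the level, at 298 against 457. Ly49 genes are close copies of each other, so the probes of one may read another, and the order among them is uncertain.

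Other NK receptors went the same way, with 8 of 21 lower, 0 higher and a median of -1.12. Klrb1c, which carries the NK1.1 antigen, read 158, 207 and 212 in NKB against 942, 1555 and 534 in NK on 3 transcripts. The coreceptor Klrd1 (CD94) was 4.92-fold lower at 204 against 1003 and Klrk1 (NKG2D) at least 5.20-fold lower. Klrg1, an inhibitory receptor of mature NK cells, was at least 14.6-fold lower at 68.6 against 1971. Itga2, the integrin chain that bears the DX5 epitope, lay just past the threshold, at 193 against 386. Ncr1, the activating receptor NKp46, read 294 in NKB and 308 in NK as an average of transcripts that disagreed. The Fc receptor gene Fcgr3 read 181 and 180.

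Signalling behind these receptors was lower for 7 of 18 genes and higher for 1, with a median of -1.22. The adaptor Tyrobp (DAP12), through which activating Ly49 receptors signal, was 14.7-fold lower at 194 against 2858. The other common adaptor, Fcer1g, read 1270 in NKB, 1793 in NK and 33.0 in B. The Src-family kinase genes Fyn, at 472 against 2359, and Lck, at 368 against 1350, were lower on every transcript. Sh2d2a, an adaptor of Lck, was 6.95-fold lower at 359 against 2495. Vav1, an exchange factor that both antigen and NK receptors use, was the higher member at 656 against 310.

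Of 22 cytotoxic granule genes, 11 were lower and 1 was higher, with a median of -1.58. Prf1, the pore-forming perforin, was 11.4-fold lower at 288 against 3275, and the granzyme gene Gzmb was 7.24-fold lower at 233 against 1684. Gzma, the other granzyme gene above its level in NKB, read 4098 in NKB, 9758 in NK and 40.7 in B. The cathepsin gene Ctsw was 9.38-fold lower at 339 against 3184 and the aspartic protease gene Ctsd 8.09-fold lower at 400 against 3238. Genes that move granules were lower as well, with Rab27a at 105 against 399 and Stxbp2 at 200 against 662. The proteoglycan of the granule matrix, Srgn, read 1798 and 1163, and Ctsc, which activates granzymes, was the higher member at 544 against 252.

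The transcription factors of the NK and T lineages had 6 of 18 lower and 0 higher, with a median of -1.49. Tcf7, which acts early in both lineages, read 129, 139 and 75.4 in NKB against 1293, 1276 and 814 in NK. Runx3, which NK cells need for cytotoxic genes, was at least 7.07-fold lower at 47.5 against 956. Nfil3, required for NK cells to form, read 71.5 and 607, and Eomes, the T-box factor of mature NK cells, 132 and 583. Id2, which restrains E proteins in NK cells, was 4.33-fold lower at 285 against 1234, and Hopx at least 4.31-fold lower. The ETS factor gene Ets1 read 558 in NKB and 465 in NK and Runx1 read 258 and 268. The T-box gene Tbx21 was not analysed here.

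Promoter windows of 3 lower NK genes are printed because they hold binding letters of RUNX or T-box factors, families that include Runx3 and Eomes. They come from the same RefSeq table and build and show the 250 bases before the start. In Nkg7 the capitals mark ACCACA, the reverse complement of the RUNX letters TGTGGT, 83 bases before the start, and AGGTGTGA, letters of T-box factors, 14 bases before it. In Gzmb they mark TGTGGT 93 and 34 bases before the start, and in Klrk1 TGTGGT 129 bases before it. Both strands were searched, and no marked letters overlap another motif.
Nkg7, chr7:43436888-43437137, plus strand: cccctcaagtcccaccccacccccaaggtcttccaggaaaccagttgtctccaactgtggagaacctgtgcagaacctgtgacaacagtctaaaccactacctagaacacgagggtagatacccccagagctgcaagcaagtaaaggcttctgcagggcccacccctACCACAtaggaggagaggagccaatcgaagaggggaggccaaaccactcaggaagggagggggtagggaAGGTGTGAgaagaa
Gzmb, chr14:56262335-56262584, minus strand: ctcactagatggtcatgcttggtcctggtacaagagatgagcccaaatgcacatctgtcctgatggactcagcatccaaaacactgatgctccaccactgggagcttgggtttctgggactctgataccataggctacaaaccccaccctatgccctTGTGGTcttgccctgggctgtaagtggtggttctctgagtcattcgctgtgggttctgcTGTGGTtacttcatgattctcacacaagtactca
Klrk1, chr6:129623865-129624114, minus strand: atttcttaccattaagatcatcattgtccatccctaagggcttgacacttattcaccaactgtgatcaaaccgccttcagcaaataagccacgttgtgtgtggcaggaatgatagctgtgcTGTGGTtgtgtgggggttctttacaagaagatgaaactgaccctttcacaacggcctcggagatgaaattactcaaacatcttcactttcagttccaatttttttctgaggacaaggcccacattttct
TGTGGT was in 15.7% of the windows of genes lower in NKB, 8.90% of those of genes higher in NKB and 12.3% of all windows. The T-box letters were in 1.40%, 0.636% and 1.01% of them. CCGGAAGT, a site of ETS factors, was in 4.07%, 6.78% and 4.13%. These shares are descriptions of the windows and were not tested.

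Cytokine receptors were led by the chains of the interleukin 2 and interleukin 15 receptors. Next to Il2rb, the common gamma chain gene Il2rg was 3.77-fold lower at 1939 against 7304, with 3873 in B. In all, 4 of 18 receptor genes were lower and 1 was higher, the interferon gamma receptor chain gene Ifngr2 at 314 against 74.2. The interferon gamma receptor's other chain, Ifngr1, read 607 in NKB and 1123 in NK. The interleukin 18 receptor genes Il18r1 and Il18rap were under the level in NKB and read 184 and 139 in NK. Il12rb1 was under the level on both arrays.

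The kinases and STAT factors that act behind these receptors had 7 of 16 lower and 3 higher, with a median of -1.01. Jak1 was 5.10-fold lower at 679 against 3463 and Jak3 4.74-fold lower at 167 against 794, and these 2 kinases serve the gamma chain receptors. Stat3 read 790 and 2602, the feedback inhibitor Socs3 221 and 771, and Stat4, which answers interleukin 12, 241 and 544. The higher members included Stat2, a factor of type I interferon signalling, at 865 against 299, and the kinase gene Jak2 at 672 against 239. Stat5a and Stat5b, the factors that answer interleukin 2 and interleukin 15, were under the level in NKB and read 176 and 154 in NK.

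NKB cells have been described as makers of interleukin 18 and interleukin 12, so the cytokine genes were read one by one. Il18 averaged 232 in NKB, 86.6 in NK and 102 in B, and at 1.69-fold over the NK level it was not called. Its 2 transcripts disagreed, at 606 and 88.4 in NKB, and both were under the level in NK. Il12a, Il12b and Il15 were under the level on both arrays. Of 23 cytokine genes, 15 were under it on both, 1 was higher (4.35%) and 3 were lower (13.0%), beside 5.96% and 5.1% of all genes. Lta, lymphotoxin alpha of B cells, was the higher one at 390 against 92.5. Ifng, the main cytokine of NK cells, was at least 11.5-fold lower at 67.8 against 1553, Flt3l, a growth factor of dendritic cells, at least 2.85-fold lower and Il27 at least 2.62-fold lower.

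Among 18 chemokines, 4 were lower and 0 higher. Ccl4 was at least 14.3-fold lower at 91.8 against 1930, Ccl3 4.14-fold lower at 2400 against 9932 and Xcl1, which draws dendritic cells, at least 3.71-fold lower. Ccl5, a chemokine that NK and T cells store, was 3.41-fold lower and read 8916 in NKB, 30430 in NK and 114 in B. Ccl3 and Ccl5 were therefore far above their B level of 139 and 114 while below NK.

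Receptors that place lymphocytes in tissue differed in both directions. The 4 higher of 20 were Gpr183, which guides B cells to the edge of follicles, at 1147 against 108, the lymph egress receptor S1pr1 at 1169 against 208, the follicle homing receptor Cxcr5 at 538 against 157 and Ccr7 at 321 against 39.6. The 6 lower ones were Selplg (443 in NKB, 6132 in NK and 747 in B), the inflammatory homing receptor Cxcr3 at 42.9 against 509 and S1pr5, by which NK cells leave marrow and nodes, at 511 against 1368, with Cmklr1, Ccr2 and S1pr4.

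Adhesion molecules were lower for 8 of 26 and higher for 1. Itgb2, the shared chain of the leukocyte integrins, was 5.58-fold lower at 1163 against 6493, its partner chains Itgam and Itgax at least 2.57-fold and at least 2.69-fold lower, and Itgal read 441 and 479. Itgb7, a chain of the gut homing integrin, read 63.4 in NKB, 1061 in NK and 1244 in B. Spn, a leukocyte mucin, was at least 6.28-fold lower. The higher member was Cd2, which binds CD48, at 12429 in NKB, 3812 in NK and 3129 in B.

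NF-kappaB genes did not move as a group. Rel, a subunit of mature lymphocytes, was 59.8-fold higher at 8866 against 148, with 548 in B, on a single transcript. Traf3, which restrains the noncanonical pathway, was at least 5.84-fold higher on average. Its transcripts read 832 and 771 in NKB against 162 and 113 in NK. In contrast, the subunit gene Rela was 2.85-fold lower at 161 against 459, the inhibitor Nfkbia 3.91-fold lower at 271 against 1059 and the feedback enzyme gene Tnfaip3 at least 5.55-fold lower at 133 against 750. Nfkb1 read 417 in NKB and 424 in NK. The list had 3 of 21 higher (14.3%) and 5 lower (23.8%), beside 5.96% and 5.1% of all genes.

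Immediate-early genes, which respond within minutes to receptor signals, had 2 of 23 higher and 6 lower, with a median of -0.87. Nr4a1, an orphan nuclear receptor, was 5.89-fold lower at 843 against 4971, Junb 4.47-fold lower at 2085 against 9326, and the phosphatase gene Dusp2 4.47-fold lower at 268 against 1197. Egr3 was at least 3.31-fold higher at 454 against 84.1, with 1393 in B, and the antiproliferative gene Btg1 2.31-fold higher at 10428 against 4509. Fos read 1406 in NKB and 710 in NK, just under 2-fold, and Jun 815 and 1008.

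Interferon-stimulated genes had 4 of 28 higher (14.3%) and 2 lower (7.14%), beside 5.96% and 5.1% of all genes. Ifit3, which binds viral RNA, was 7.78-fold higher at 1130 against 145 and the GTPase gene Irgm1 at least 3.62-fold higher, whereas Irf7, the master factor of the type I response, was at least 2.80-fold lower at 93.2 against 379. Ifit1, Isg15 and Mx1 were among the 15 under the level on both arrays. Among Toll-like receptors and sensors, 3 of 20 were higher (15%) and 1 was lower (5%), the latter near the share of all genes. Unc93b1, which carries nucleic acid sensing receptors to endosomes, was 3.17-fold higher at 1165 against 367, and Nod1, a cytosolic sensor of bacterial wall, at least 4.96-fold lower at 79.3 against 671. Myd88 read 697 on both arrays.

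In the class I pathway some presenting chains were lower and some folding chaperones higher. Of 22 genes, 4 were higher and 6 lower (2 and 8 after a new quantile normalization), with a median of -0.53. H2-K1 was 3.35-fold lower at 1101 against 3688, H2-Q7 7.18-fold lower at 1203 against 8639, and H2-D1 read 6217 and 12317, just inside 2-fold. The H2-Q7 transcripts differed in size of effect, with 1049 against 35387 on one and 1380 against 2109 on another. B2m, the light chain of all class I molecules, read 10885 in NKB and 8602 in NK. The chaperones Calr, Pdia3 and Canx were 3.82-fold, 2.89-fold and 2.53-fold higher, and the immunoproteasome subunit Psmb8 2.37-fold higher at 2047 against 862. The Canx transcripts disagreed, with 4161 against 423 on one and 512 against 392 on another. Class I genes are near copies of each other and probes may read several.

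Class I and class II genes lie in one region, and most NK receptors in another, so both regions were read along their length. The NK gene complex lies between the outermost Klr genes, at chr6:128559366-131197380 on MM9. It holds 61 genes on the array, of which 21 were lower and 6 higher, beside 5.1% and 5.96% of all genes. All but 1 of the lower genes were Klr genes, the exception being the predicted gene Gm4697 at 286 against 642. The higher ones sat among them. Clec2d, the ligand of the receptor encoded by Klrb1b, read 906 in NKB and 78.0 in NK, and the related Clec2i read 854 in NKB, 170 in NK and 712 in B. Cd69 also lies there, as do Gabarapl1, an autophagy gene, at 811 against 138, and the myeloid lectin genes Clec1b and Clec12a at 358 against 100 and 304 against 110.

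The MHC region, chr17:34132968-37620474 on MM9, holds 168 genes on the array, of which 14 were higher and 20 lower. Over all genes on the array, 5.96% were higher and 5.1% lower. H2-K1, the first gene of the region, was lower. Of the class II genes that follow, H2-DMb1, H2-DMb2, H2-Aa and H2-Eb1 were higher, and class I genes beyond them, such as H2-Q7 and H2-Q10, were lower. Other genes of the region went either way. Aif1, a macrophage actin-binding protein, was at least 7.58-fold higher at 1039 against 119, and the sialidase gene Neu1 at least 2.82-fold higher, while Ehmt2, a histone methyltransferase, was 4.45-fold lower at 275 against 1222 and Gpsm3 at least 4.70-fold lower at 118 against 636. By chromosome, the share of measured genes that were higher ran between 12.8% on chromosome 8 and 26.4% on chromosome 13. The share that were lower ran between 6.90% on chromosome 18 and 18.4% on chromosome 6, where the NK gene complex lies. Over all measured genes, those above the level on at least 1 of the 2 arrays, the shares were 17.5% and 15.0%.

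**Figure D4:**
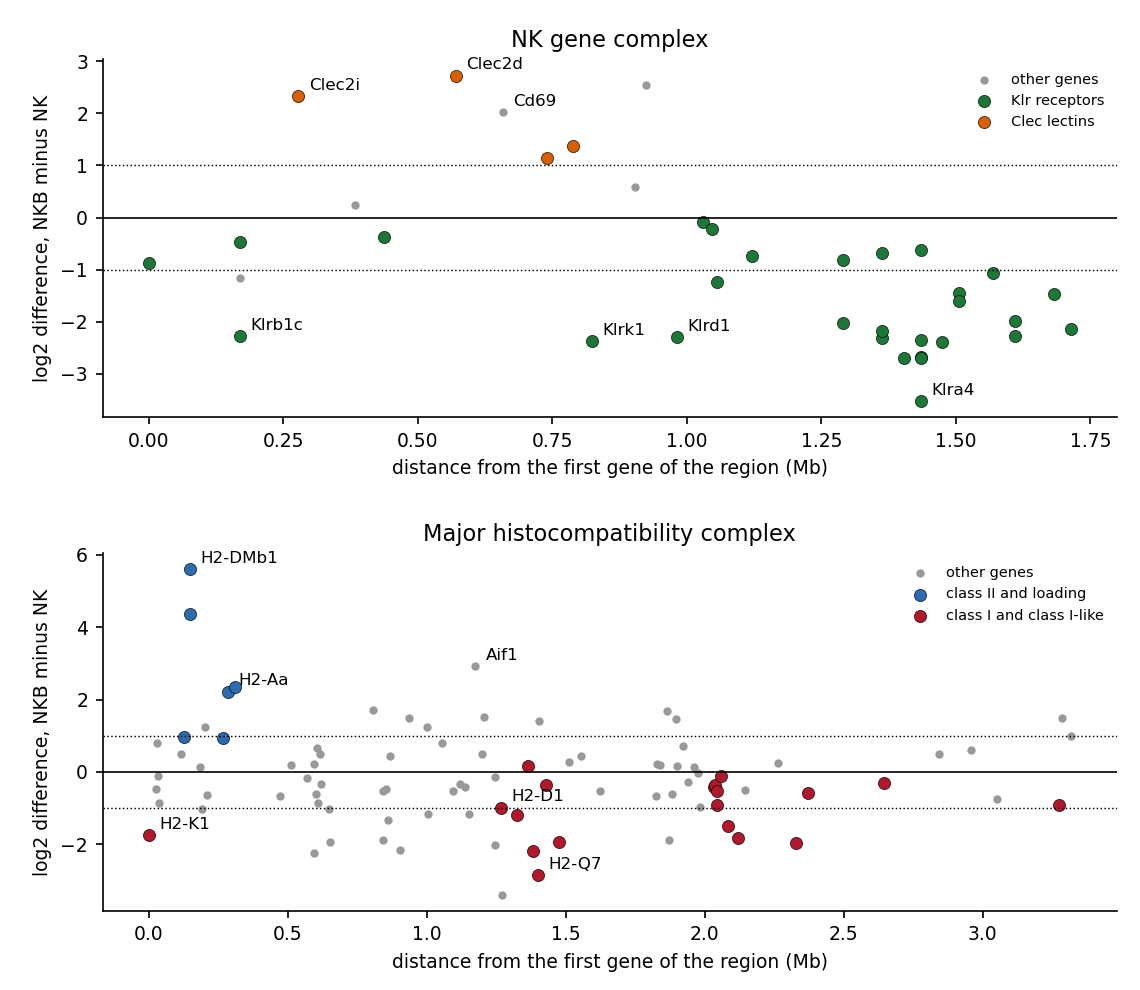
Difference in log2 intensity, NKB minus NK, of genes above the level on at least 1 array, against distance from the first gene of the NK gene complex (top) and of the major histocompatibility complex (bottom); dotted lines are 2-fold. The Klr receptors lie below 0 while Clec2d and Clec2i lie above it, and class II genes such as H2-DMb1 at 9954 against 205 lie above class I genes such as H2-K1 at 1101 against 3688.

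Genes that every cell uses leaned to the higher side in NKB. Cytosolic ribosomal proteins were higher for 21 of 80 and lower for 2 (15 and 6 after a new quantile normalization, with their median then at 0.03), and oxidative phosphorylation subunits for 24 of 87 and 6. Proteasome subunits were higher for 11 of 40 and lower for 1, mitochondrial ribosomal proteins for 15 of 81 and 2, and splicing factors and hnRNPs for 15 of 52 and 2. These shares run between 18.5% and 28.8% higher, beside 5.96% of all genes. Most genes of these families were above the level on at least 1 of the 2 arrays, with 71, 73, 31, 51 and 45 in that order. Among all genes above it on at least 1 array, 17.5% were higher, so the excess over that base is smaller. Medians without the level were 0.38, 0.60, 0.41, 0.28 and 0.60 in that order. Other families did not share these counts: translation factors had 10 of 73 higher and 9 lower (5 and 9 after the quantile normalization), glycolysis enzymes 1 of 19 higher and 0 lower, and zinc finger Zfp genes 15 of 356 higher and 4 lower.

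Within the families a few members were far apart from the rest. Rpl35 read 12223 in NKB and 904 in NK, Rps21 2221 and 271, and Rpl29 19126 and 2950, whereas Rps2 was 2.14-fold lower on average. The Rps2 transcripts disagreed, with 481 against 2316.5 on one and 8044 against 8429 on the brightest. Ribosomal protein genes have many processed copies, so the level of any one is uncertain. Among respiratory chain genes, Cox6c was 15.6-fold higher at 2748 against 176, Uqcr10 10.9-fold higher and Ndufb10 8.16-fold higher, while Atp5g3 was at least 6.45-fold lower at 96.3 against 873 and Cox8a 3.46-fold lower. The proteasome subunit gene Psma7 was 9.66-fold higher at 5071 against 525. Of the RNA-binding proteins, Hnrnpul2 was 20.8-fold higher at 8664 against 416, Srsf1 10.5-fold higher and the helicase gene Dhx9 at least 15.2-fold higher at 2084 against 120.

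Chaperones had 10 of 23 higher and 1 lower, with a median of 0.62. Cct5, a subunit of the cytosolic chaperonin, was 11.2-fold higher at 4790 against 429. Hsp90b1 of the endoplasmic reticulum was 6.34-fold higher and its cytosolic relative Hsp90ab1 6.33-fold higher at 12362 against 1954. Hspa8, the constitutive cytosolic chaperone, was 3.08-fold lower at 195 against 601, and Hspa5 read 1529 and 2347. TCA cycle enzymes had 5 of 20 higher and 0 lower, led by Mdh1 at 1034 against 185. Ldhb, the lactate dehydrogenase chain of oxidative tissue, was the only glycolysis gene called, at 932 against 37.4, with 118 in B. Gapdh, with 9 transcripts, read 2444 in NKB and 2615 in NK.

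Cell division genes were mostly dim. Of 29, 12 were under the level on both arrays, 3 were higher (10.3%) and 1 was lower (3.45%), beside 5.96% and 5.1% of all genes. The 3 higher genes were among 17 above the level on at least 1 array, and 17.5% of all such genes were higher. As a list these genes were thus near the share of all genes on the higher side. Mki67, a marker of cycling cells, read 452, 1355 and 1600 in NKB against 142, 129 and 177 in NK, so each transcript was at least 2-fold higher, and 129 on average in B. Top2a, the topoisomerase of dividing cells, read 432 in NKB and was under the level in NK and B. Cdk1, Ccnb1 and Ccna2, which drive mitosis, were under the level on both arrays, and the replication gene Mcm4 was at least 2.91-fold lower at 129 against 394. Among apoptosis regulators, Birc3 was 2.75-fold higher at 639 against 232, Xiap 2.18-fold higher and Bcl2 2.37-fold lower at 195 against 462. Mcl1, which NK cells need to survive, read 1106 and 519, and Bcl2l1 142 and 612, but both differences changed sign with the transcript of highest mean over the 3 arrays. The transcripts of Bcl2l1 disagreed, with 833 against 463 on one and 45.4 against 4097 on another.

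**Figure D5:**
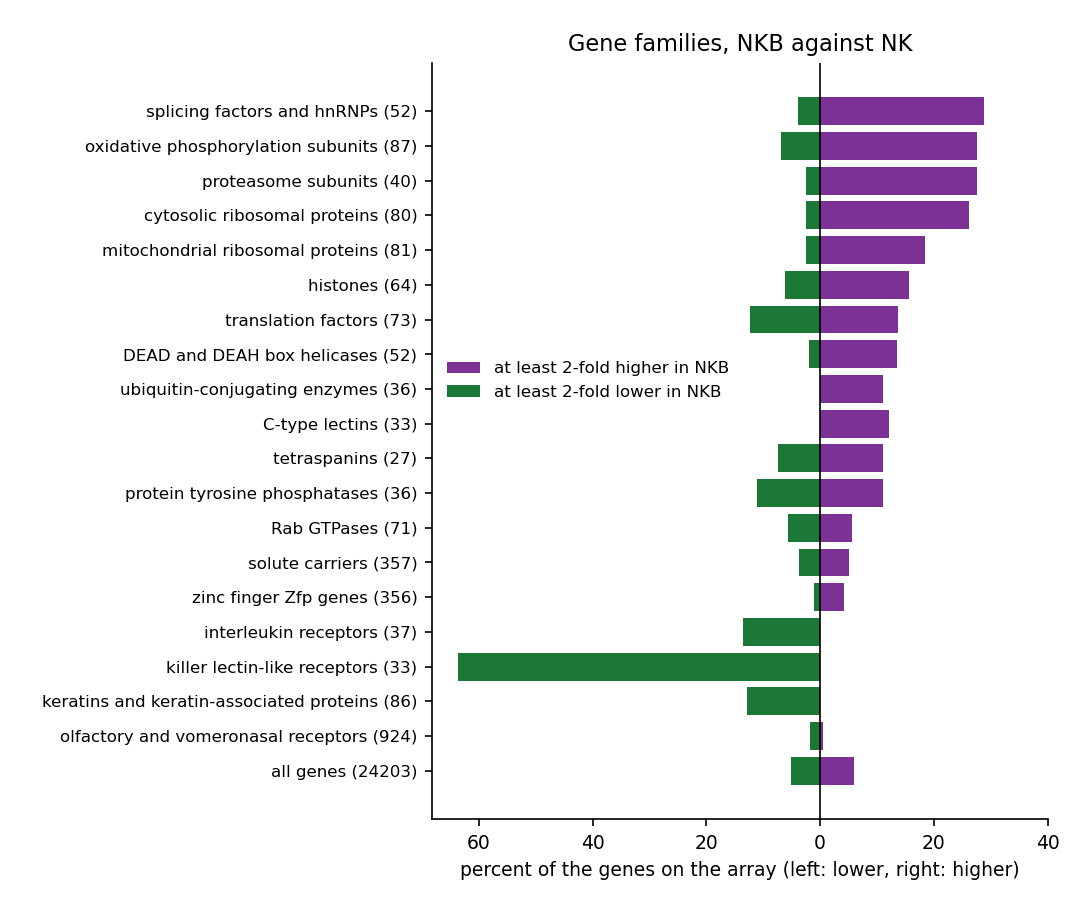
Share of each family's genes on the array that were at least 2-fold higher (right) or lower (left) in NKB than in NK, with the number of genes in brackets. Splicing factors, with 15 of 52 higher, stand at the top, killer lectin-like receptors, with 21 of 33 lower, reach farthest left, and the bottom bar gives all 24203 genes.

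Lysosomal and cathepsin genes had 9 of 24 higher and 4 lower, with a median of 0.86. Cd63, a tetraspanin of late endosomes, was at least 16.8-fold higher at 2299 against 112, with 55.0 in B. Ctsh was 6.24-fold higher at 1240 against 199, with 1641 in B. Psap, which activates lipid breakdown, read 9902 in NKB and 2914 in NK, and the protease gene Ctsb 7916 in NKB, 2944 in NK and 810 in B. Cd68 was 4.12-fold lower at 187 against 770. Macrophages and kidney tubules are rich in these genes too. The lists of both also differed between the arrays, as given next, and their part here was not tested.

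Macrophage genes moved in both directions. Of 24, 6 were higher (25%) and 6 lower (25%), beside 5.96% and 5.1% of all genes. In NKB 16 were above the level, in NK 16 and in B 3. The higher ones included Apoe, which carries lipid, at 10571 and 2352 in NKB against 659 and 690 in NK, Vcam1, by which splenic macrophages hold other cells, at 646 against 175, and Axl, a receptor for dying cells, at 498 against 112. Spic and Cd163, which mark the red pulp and tissue macrophages of the spleen, read 375 and 396 in NKB and were under the level in NK. The complement genes C1qa and C1qc read 985 and 1972 in NKB against 856 and 1247 in NK. The lower ones included the lysozyme genes Lyz2 at 671 against 2388 and Lyz1 at 69.5 against 772, and the monocyte genes Ly6c2 and Ccr2. Cd14, Marco, Msr1 and Fcgr1 were under the level on both arrays.

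Genes of kidney tubules were higher for 14 of 29 and lower for 0, with a median of 2.43, and since the list was chosen after its leading members had been seen, the count is a description. Beside Ass1 and Slc27a2, the phosphate transporter gene Slc34a1 of the proximal tubule read 1809 in NKB, 111 in NK and 167 in B. Miox, an enzyme of inositol breakdown in kidney, read 1407, 49.5 and 30.9. The water channel gene Aqp2 of the collecting duct read 538, 55.9 and 56.6, and uromodulin (Umod) of the thick ascending limb 369, 26.8 and 33.5. These genes belong to several segments of the tubule. The podocyte gene Nphs1, and the transporter genes Slc12a1, Slc12a3 and Lrp2, were under the level on both arrays. The label gives spleen as the tissue.

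Other cell types gave smaller counts. Of 17 T cell genes, 3 were lower and 0 higher, with Thy1 at 528 against 2260 and Cd3e, part of the CD3 complex, at 146 against 534. Cd4, Cd8a and Cd3d were under the level on both arrays. Of 20 erythroid genes, 2 were higher, with Hbb-b1, adult beta globin, at 5583 against 2083 and the iron carrier gene Trf at 2997 in NKB, 979 in NK and 104 in B. Neutrophil genes had 1 of 16 lower and 0 higher, and dendritic cell genes 1 of 14 higher and 2 lower. Platelet genes had 1 of 11 higher and stromal and endothelial genes 0 of 18 in either direction. Over all genes, 5.96% were higher and 5.1% lower. The neutrophil share of 6.25% lower and the dendritic cell share of 7.14% higher are near these. T cell genes were lower for 17.6% and dendritic cell genes for 14.3%, and erythroid and platelet genes were higher for 10% and 9.09%.

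The sorting text names stem cells, and their list was read for that reason. Of 18 stem and progenitor genes, 7 were above the level in NKB, 6 in NK and 4 in B. Kit, Cd34, Procr and Meis1 were under it on the NKB and NK arrays. The higher members were Ly6a (Sca-1), which lymphocytes also carry, at 1099 in NKB, 157 in NK and 1368 in B, and Lmo2 at 903, 83.3 and 1848. Both were brightest in B.

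Xist, the RNA that silences an X chromosome in female cells, was 8.21-fold higher in NKB, at 1001 and 5886 on 2 transcripts against 303 and 288 in NK, with 774 on average in B. All 7 Y-linked genes on the list were under the level on both arrays. The labels used here do not state the sex of the mice.

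A few genes of families not known from lymphocytes read high on the NK array and were called lower in NKB. Olfr447 and Vmn2r85, an olfactory and a vomeronasal receptor gene, read 143 and 105 in NKB against 1870 and 1496 in NK, with 1349 and 344 in B. The keratin-associated gene Krtap5-1 read 2128 in NKB, 9188 in NK and 8206 in B. Keratins and keratin-associated proteins were lower for 11 of 86 (12.8%) and higher for 0, beside 5.1% of all genes. Defensins were lower for 4 of 68, a share of 5.88% that is near that of all genes. Each of the 3 genes named had 1 transcript on the array.

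The authors' deposited tables of this comparison list 3783 transcripts higher in NKB and 4094 lower, with log2 ratios up to 7.14 and down to -7.41. The ratios were recomputed from the arrays and differed by at most 1.5e-06. The tables use no detection level. On the lists of the authors' deposited tables, 127 of the higher transcripts (3.36%) and 341 of the lower ones (8.33%) were under the level on both arrays. With the level applied, 2866 and 2367 still differed at least 2-fold.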

How the data were processed

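Intensities deposited by the authors are linear values, 1 for each transcript on each array, from RMA (version not given in the sources used here; tool per the submitters' processing notes). Per the file headers, 44155 of 44170 transcripts have 3 probes and coordinates are on MM9. A further deposited table holds the same values. The log2 ratios in the authors' deposited tables are plain ratios of 2 arrays.

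Transcripts of one gene name were averaged on the log2 scale, and 2284 transcripts without a name were left out of gene counts. No further normalization was applied. Symbols were updated by gene identifier with a RefSeq table of GRCm38.p6, which held 21583 of 24203 genes and changed 3302 symbols. The level, the 2-fold threshold and the absence of a test are as given in the report, and precision is limited by the number of arrays. The alternatives were other levels, scalings, transcript rules and thresholds. Genes named are the 12 largest and 12 smallest differences among genes with 2 or more transcripts that all passed in one direction, without predicted names, up to 3 called members of each list per direction, and 24 fixed genes. Further list and family members were named after their values were seen. The members and all 41 lists and 30 families were chosen with earlier results of these data known, and 1 list (kidney) was added after the leading genes were seen. The promoters printed were picked by hand from genes named here whose windows held a motif, and windows of many other genes held one too. The steps were also run on simulated data, and that outcome is not given here. Python 3.11.15, pandas 2.3.3, numpy 2.4.6 and matplotlib 3.10.9 were used. Some listed genes are not reported here by name.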

Additional observations from a re-analysis of the deposited data

Results flagged for a closer look

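Transcripts without a gene name lie outside the gene counts. Of 2284 such transcripts, 490 were above the level on the NKB array and 535 on the NK array, and 109 were at least 2-fold higher and 127 at least 2-fold lower in NKB. Those annotated as T cell receptor transcripts numbered 151, of which 27 were above the level in NKB and 63 in NK, with 1 higher and 27 lower. Of 23 immunoglobulin transcripts, 4 were higher and 1 was lower. With 1 array per population these are plain differences without a test.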

How the results depend on the processing

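The counts of 1442 higher and 1235 lower genes moved most with the detection level. They were 576 and 705 with the level at the 99th percentile of the olfactory and vomeronasal genes, 2425 and 2405 with it at the array median, and 3675 and 3605 without one. Taking each gene's brightest transcript, that of highest mean log2 intensity over the 3 arrays, gave 2218 higher and 1807 lower genes, and a 4-fold threshold 446 and 285. A new quantile normalization gave 1229 and 1456, and shifting the arrays to equal medians 1293 and 1414, so scaling decides which side is larger. Leaving out genes of the other cell type lists, an alternative chosen after seeing the data, gave 1419 and 1225. The median of the platelet list changed sign to -0.17 at the 99th percentile and -0.29 without a level. With that transcript, the log2 difference was -0.83 for Mcl1, 0.85 for Bcl2l1 and 0.18 for Rpl10. Of 1841 values of named genes under the alternatives, 3 changed sign from a main difference of at least 2-fold. A further 197 moved by more than 0.89 on the log2 scale, the SD of the olfactory and vomeronasal receptor genes. The other 1641 stayed within 0.89 of the main value, and the side of the 2-fold threshold was not compared. Values under the level on both arrays in an alternative were left out of these counts. No array was repeated, so none of these settings measures the spread between samples.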
